A study of Saccharomyces cerevisiae with 18 samples.

Results

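The 32 genes described here encode the mevalonate and ergosterol pathway of budding yeast (Saccharomyces cerevisiae) together with its electron donors, its transcriptional regulators and the proteins that esterify, move or import sterols. They were taken by symbol from a list of pathway genes, and all 32 were found among the 7130 genes of the deposited count table. Messenger RNA had been sequenced from log-phase cells in YPD, a rich glucose medium, at 25 °C. Each strain gave 3 libraries from separate RNA isolations, so the p-values below measure the spread between isolations. The strains are labelled fes1Δ (CAY1221, the FES1 deletion), fes1ΔS (CAY1290), fes1ΔL (CAY1256) and WT (CAY1015), and the labels do not spell out the letters S and L. Each genotype is a single named strain. FES1 encodes Fes1, which helps Hsp70 chaperones release nucleotide and is made as a short and a long splice isoform. A further 6 libraries of cells heat-shocked at 37 °C for 30 minutes belong to the series, but their table columns carry names that match no sample label and are not analysed here.

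Ergosterol is the main sterol of fungal membranes, the counterpart of cholesterol in animals. Yeast builds it from acetyl-CoA, first through mevalonate to farnesyl pyrophosphate, which also feeds ubiquinone, dolichol, heme A and protein prenylation, then through squalene to lanosterol, and from lanosterol through a series of demethylation, reduction, desaturation and isomerization steps in the endoplasmic reticulum. Several of these steps use oxygen, heme or iron. The zinc cluster activators Upc2 and Ecm22 raise transcription of many of the genes when sterol falls, and the reductase isozyme Hmg2 is in addition degraded through the endoplasmic reticulum ubiquitin pathway when pathway intermediates build up.

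Total counts were 7608550 to 8955839 in the libraries labelled fes1Δ, 8415183 to 10246711 in fes1ΔS, 8999115 to 9700170 in fes1ΔL and 7994723 to 9321066 in WT. Levels are given as CPM, counts scaled to a common library size after TMM adjustment. FES1 goes against the label of the deletion strain. It averaged 159 ± 8.59 CPM in the libraries labelled fes1Δ, 1434 ± 80.2 CPM in fes1ΔS, 146 ± 3.27 CPM in fes1ΔL and 158 ± 7.49 CPM in WT (SD, n = 3 each). URA3, a common selection marker, had 1868, 1866 and 1590 counts in the libraries labelled fes1Δ and at most 3 counts in any other library. Directions given for fes1Δ are therefore those of the libraries so labelled, and the presence of URA3 and the FES1 allele cannot be told apart there. The labels do not explain the high FES1 level in fes1ΔS either, and directions given for fes1ΔS are likewise those of the libraries so labelled. All 32 genes passed the filter on low counts and were tested with edgeR among 5719 genes. A gene is called when its p, adjusted by Benjamini-Hochberg over all 5719, lies under 0.05.

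In the libraries labelled fes1Δ, genes of the pathway were lower than in WT by modest amounts. Of the 9 that fell, 5 act after lanosterol, as do 11 of the 32 genes. Of the 32 genes, 9 fell and none was called higher, where 7.15% of all genes tested were called lower and 5.72% higher. No gene of the 32 was higher at an unadjusted p under 0.05 either, against 692 of 5719 genes, and DESeq2 also called none higher. At that threshold 16 of the 32 were lower, against 802 of 5719 genes. The median log2 fold change of the 32 was -0.14, against 0.00 over all genes tested, and 27 of the 32 had a negative value, against 2854 of 5719 genes. In 15 of the 32 every fes1Δ library lay below every WT library, against 13.5% of all genes. ERG28 fell by 25.7%, the most of the 9, and ERG20 fell by 11.3%, the least.

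In fes1ΔS, 2 of the 32 genes fell against WT, where 3.44% of all genes were called lower. These were ERG2 and ERG4. No member was called higher by edgeR, where 3.22% of all genes were. At an unadjusted p under 0.05 there were 2 higher members, ERG1 and ERG11, against 548 of 5719 genes, and DESeq2 called 1 of them, ERG11. At the same threshold 5 members were lower, against 645 of 5719 genes. The median of the 32 was -0.08. In 8 members all fes1ΔS libraries lay below all WT libraries, against 14.5% of genes, and in 3 members all lay above, against 13.6% of genes.

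In fes1ΔL, none of the 32 was called against WT by edgeR or by DESeq2, where edgeR called 0.0699% of all genes in either direction. At an unadjusted p under 0.05 there was 1 lower member, DAP1, and none higher, against 138 lower and 94 higher of 5719 genes. The median of the 32 was -0.02, and in none of the 32 did the fes1ΔL and WT libraries separate, against 11.2% of genes. The 3 comparisons share the same WT libraries, so their values are not independent of each other.

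**Figure D1:**
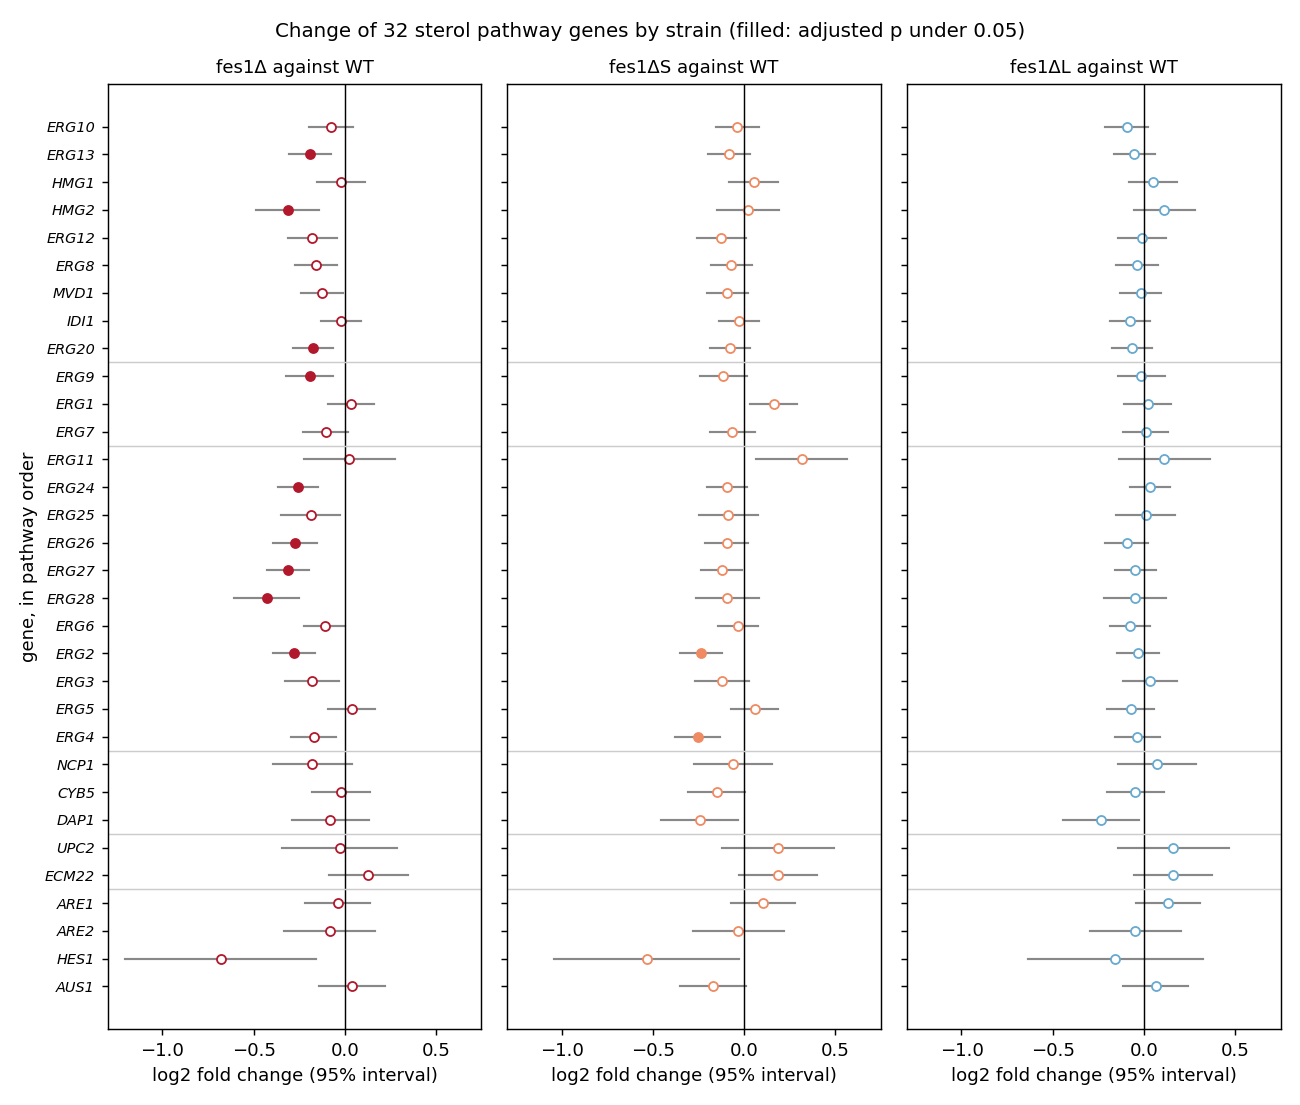
Log2 fold change against WT (x axis) of the 32 genes in pathway order (y axis) for the libraries labelled fes1Δ, fes1ΔS and fes1ΔL, with 95% intervals and filled points for called genes. There are 9 filled points for fes1Δ, all below 0, 2 for fes1ΔS and none for fes1ΔL.

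Of the 9 genes of the mevalonate steps, 3 fell in the libraries labelled fes1Δ, namely ERG13, HMG2 and ERG20, and all 9 had a negative log2 fold change, though HMG1 and IDI1 turned positive when some single libraries were left out. ERG13, the HMG-CoA synthase gene, had 373, 366 and 374 CPM in the libraries labelled fes1Δ, against 442, 428 and 401 CPM in WT. The 2 groups did not overlap, and the log2 fold change was -0.19 (SE 0.05, edgeR adjusted p = 0.0244). ERG20 encodes farnesyl pyrophosphate synthase, the last enzyme before the pathway branches. It had 417, 419 and 415 CPM in the libraries labelled fes1Δ, against 474, 476 and 460 CPM in WT, a log2 fold change of -0.17 (SE 0.05, edgeR adjusted p = 0.0366) without overlap. Its spread between libraries was the smallest of the 32 genes, with a pooled coefficient of variation of 2.39%. Both calls were near the threshold: that of ERG13 ended without WT replicate 1 or fes1Δ replicate 2 (edgeR adjusted p = 0.128 and 0.0875), and that of ERG20 without any WT library or fes1Δ replicate 1 or 2 (edgeR adjusted p from 0.0543 to 0.116). Both calls also ended in a fit of these 2 strains alone (edgeR adjusted p = 0.134 for ERG13 and 0.166 for ERG20).

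HMG1 and HMG2 encode the paralogous HMG-CoA reductases, the enzymes of the main control step, and HMG2 alone of the pair was called. HMG2 had 77.7, 68.2 and 59.1 CPM in the libraries labelled fes1Δ, against 82.7, 85.3 and 87.3 CPM in WT. All 3 values were below the WT values, with fes1Δ replicate 3 lowest, and the log2 fold change was -0.31 (SE 0.08, edgeR adjusted p = 0.0159). The call ended without WT replicate 3 or fes1Δ replicate 2 (edgeR adjusted p = 0.0593 and 0.0557). HMG1 had 173, 152 and 147 CPM in the libraries labelled fes1Δ, against 154, 166 and 159 CPM in WT. These overlap, and the log2 fold change of HMG1 was -0.02, with a 95% interval of -0.15 to 0.11. Whether the changes of HMG1 and HMG2 differ from each other was not tested. In fes1ΔS, HMG2 had 91.1, 84.4 and 83.0 CPM, around the WT values, and in fes1ΔL it had 83.5, 95.5 and 96.9 CPM.

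The remaining mevalonate genes were not called in any strain against WT. ERG12, ERG8 and MVD1, which encode the kinases and the decarboxylase that turn mevalonate into isopentenyl pyrophosphate, had log2 fold changes of -0.18, -0.16 and -0.13 in the libraries labelled fes1Δ (adjusted p = 0.0767, 0.0718 and 0.144 by edgeR). In all 3 genes the libraries labelled fes1Δ lay below those of WT without overlap. ERG10, the thiolase gene of the entry step, was at -0.08 (95% interval -0.20 to 0.04). IDI1, the isomerase gene, had 211, 211 and 212 CPM in the libraries labelled fes1Δ, against 211, 225 and 205 CPM in WT, with an interval of -0.13 to 0.09.

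In fes1ΔS the log2 fold changes of these 9 genes against WT lay between -0.12 (ERG12) and 0.05 (HMG1), and in fes1ΔL between -0.09 (ERG10) and 0.11 (HMG2). None of them was called in either strain by edgeR or DESeq2, and none had an unadjusted p under 0.05. ERG13 had 388, 401 and 410 CPM in fes1ΔS and 409, 403 and 415 CPM in fes1ΔL. ERG20 had 434, 463 and 437 CPM in fes1ΔS and 461, 438 and 448 CPM in fes1ΔL. In both genes all 6 of these libraries lay above those labelled fes1Δ, and both strains overlapped WT. HMG1 had 165, 167 and 164 CPM in fes1ΔS and 161, 174 and 161 CPM in fes1ΔL, which also overlapped WT.

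**Figure D2:**
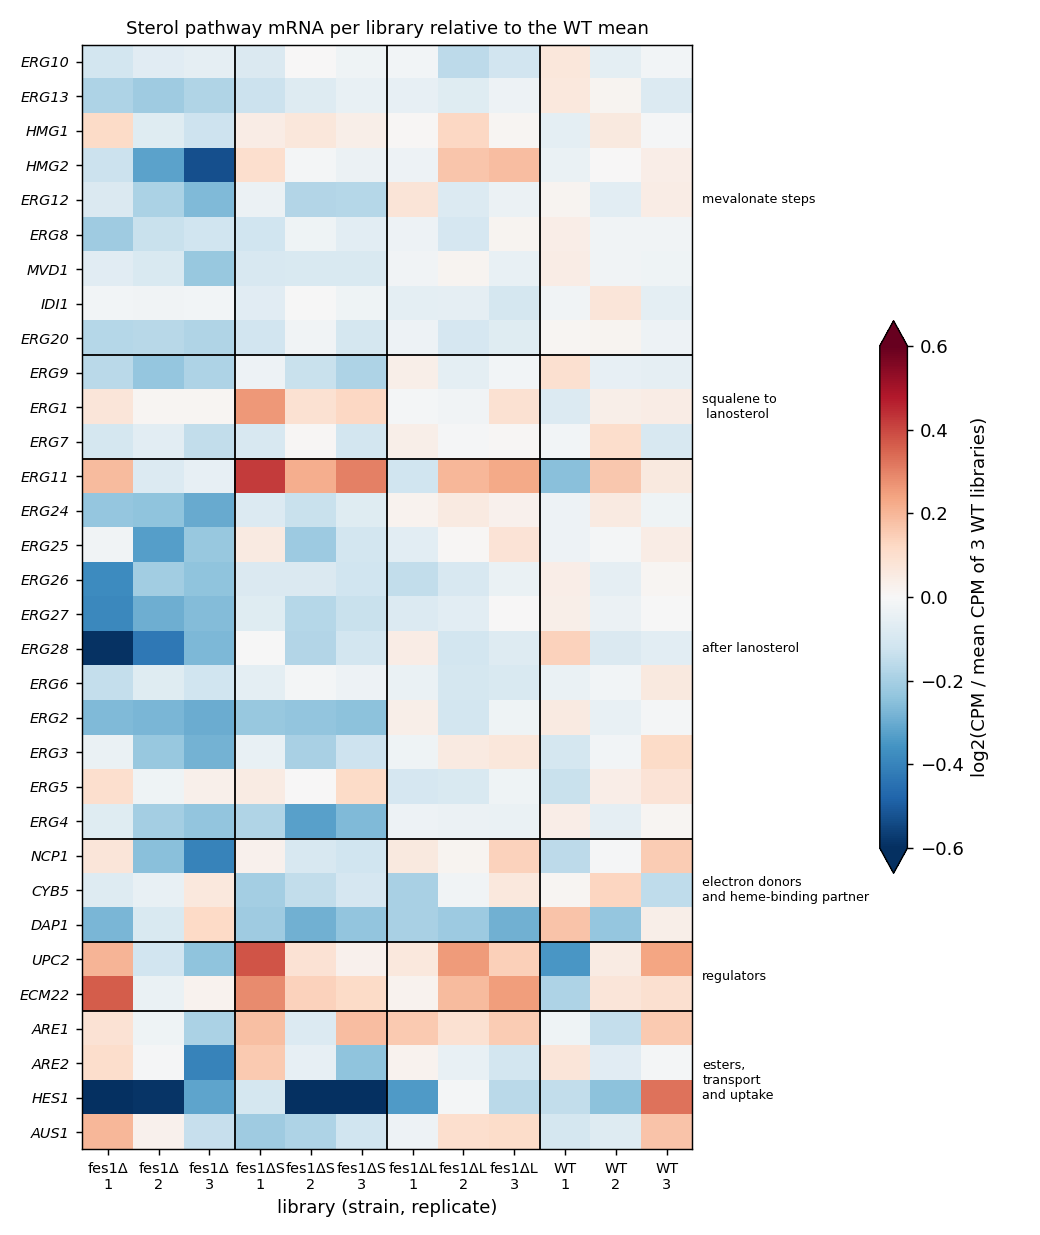
Level of each of the 32 genes (rows, in pathway order) in each of the 12 libraries (columns), as log2 of its CPM over the mean CPM of the 3 WT libraries, with values past 0.6 in either direction shown at the end of the scale. The rows from ERG24 to ERG4 are mostly blue in the libraries labelled fes1Δ, ERG2 and ERG4 are also blue in fes1ΔS, and ERG11, UPC2 and ECM22 vary between replicates within each strain.

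Among the 3 genes from squalene to lanosterol, ERG9 fell in the libraries labelled fes1Δ. It encodes squalene synthase, the enzyme that commits farnesyl pyrophosphate to sterols, and had 291, 277 and 286 CPM there, against 348, 314 and 313 CPM in WT (log2 fold change -0.19, SE 0.06, edgeR adjusted p = 0.0438). The groups did not overlap, but the call ended without WT replicate 1 or 3, without fes1Δ replicate 2, or in a fit of these 2 strains alone (edgeR adjusted p = 0.224, 0.0539, 0.146 and 0.146). In fes1ΔS ERG9 had 319, 296 and 286 CPM and in fes1ΔL 333, 312 and 322 CPM, and both strains overlapped WT. ERG7, the lanosterol synthase gene, was at -0.11 without a call (edgeR adjusted p = 0.278).

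ERG1 encodes squalene epoxidase, an oxygen-using enzyme and the target of terbinafine. It had 457, 438 and 439 CPM in the libraries labelled fes1Δ, against 411, 446 and 448 CPM in WT, and these overlap. In fes1ΔS it had 520, 464 and 474 CPM, each above every WT library. The log2 fold change there was 0.16 (95% interval 0.03 to 0.29), which did not pass the adjustment over all genes (edgeR adjusted p = 0.132).

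The 11 genes after lanosterol, the largest group by step, held most of the called members. In the libraries labelled fes1Δ 5 of them fell, ERG24, ERG26, ERG27, ERG28 and ERG2, and the median log2 fold change of the 11 was -0.19. The share that fell was 45.5% (5 of 11). It was 33.3% of the mevalonate genes (3 of 9) and 33.3% of those from squalene to lanosterol (1 of 3). The mevalonate genes were closer to the 11 by other counts. At an unadjusted p under 0.05, 8 of the 11 and 6 of the 9 were lower. Without overlap with WT, 7 of the 11 and 6 of the 9 were lower. ERG24, ERG26, ERG27, ERG28 and ERG2 stayed called under all 11 alternatives tried, with the highest adjusted p at 0.0306 (ERG24). ERG26, ERG27 and ERG28, with ERG25, act together in the complex that removes a pair of methyl groups from the sterol ring.

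ERG28, the scaffold of that complex in the endoplasmic reticulum membrane, had 39.1, 43.9 and 49.0 CPM in the libraries labelled fes1Δ, with 58.9, 52.3 and 54.7 CPM in fes1ΔS, 60.8, 54.7 and 55.9 CPM in fes1ΔL, and 64.9, 55.6 and 56.6 CPM in WT. The libraries labelled fes1Δ lay below all 9 others. Against WT the log2 fold change was -0.43 (SE 0.09, edgeR adjusted p = 0.00189), the largest fall among the called members. In fes1ΔS it was -0.09 (95% interval -0.27 to 0.08) and in fes1ΔL -0.05 (-0.22 to 0.12).

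ERG27, the sterol ketoreductase gene, had 165, 176 and 180 CPM in the libraries labelled fes1Δ, with 205, 192 and 196 CPM in fes1ΔS, 203, 206 and 216 CPM in fes1ΔL, and 221, 210 and 215 CPM in WT. Again the libraries labelled fes1Δ were the 3 lowest of the 12, and fes1ΔS lay below WT without overlap. Its change against WT, as log2, was -0.31 in the libraries labelled fes1Δ (SE 0.05, edgeR adjusted p = 6.14e-04), the smallest p of the 32 genes, and -0.12 in fes1ΔS (edgeR adjusted p = 0.195).

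ERG26, the dehydrogenase gene of the complex, had 110, 124 and 121 CPM in the libraries labelled fes1Δ, with 135, 134 and 132 CPM in fes1ΔS, 129, 134 and 139 CPM in fes1ΔL, and 147, 138 and 144 CPM in WT. Its log2 change against WT was -0.27 in the libraries labelled fes1Δ (SE 0.06, edgeR adjusted p = 0.00301) and -0.10 in fes1ΔS (95% interval -0.22 to 0.02). ERG25 encodes the iron-containing oxidase of the complex and was more variable, with 522, 422 and 454 CPM in the libraries labelled fes1Δ, against 519, 526 and 546 CPM in WT. Here fes1Δ replicate 1 lay within the WT range and the other two below it. ERG25 was not called (log2 fold change -0.19, edgeR adjusted p = 0.127), but it was called without fes1Δ replicate 1 (-0.28, edgeR adjusted p = 0.0194).

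ERG24 encodes the sterol reductase that follows the lanosterol demethylase and is a target of morpholine fungicides. It had 130, 129 and 124 CPM in the libraries labelled fes1Δ, with 144, 139 and 145 CPM in fes1ΔS, 155, 158 and 155 CPM in fes1ΔL, and 149, 158 and 150 CPM in WT. The libraries labelled fes1Δ were the lowest and fes1ΔS came next, both without overlap with WT. Its log2 difference from WT came to -0.26 in the libraries labelled fes1Δ (SE 0.05, edgeR adjusted p = 0.00236) and -0.09 in fes1ΔS, where it was not called (edgeR adjusted p = 0.318).

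ERG2, the sterol isomerase gene, was lower than in WT in both of these strains. It had 259, 257 and 253 CPM in the libraries labelled fes1Δ, with 266, 264 and 262 CPM in fes1ΔS, 319, 289 and 306 CPM in fes1ΔL, and 323, 301 and 309 CPM in WT. The first 6 of these values all lay below the other 6. On the log2 scale ERG2 fell by 0.28 in the libraries labelled fes1Δ (SE 0.05, edgeR adjusted p = 0.00174) and fell by 0.24 in fes1ΔS (SE 0.05, edgeR adjusted p = 0.00961). The direct difference of fes1Δ from fes1ΔS was -0.04, with a 95% interval of -0.16 to 0.07. In fes1ΔS the call of ERG2 ended without WT replicate 1 (-0.21, edgeR adjusted p = 0.0573).

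ERG4, the reductase gene of the last step to ergosterol, had 561, 511 and 500.5 CPM in the libraries labelled fes1Δ, with 520, 471 and 490 CPM in fes1ΔS, 576, 576 and 573 CPM in fes1ΔL, and 606, 567 and 595 CPM in WT. In fes1ΔS it fell by 0.26 on the log2 scale (SE 0.06, edgeR adjusted p = 0.00987). The call ended without fes1ΔS replicate 2 (edgeR adjusted p = 0.0805) or 3 (0.0501). In the libraries labelled fes1Δ ERG4 was at -0.17, also without overlap with WT, but edgeR did not call it (adjusted p = 0.0683) while DESeq2 did (adjusted p = 0.0411).

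**Figure D3:**
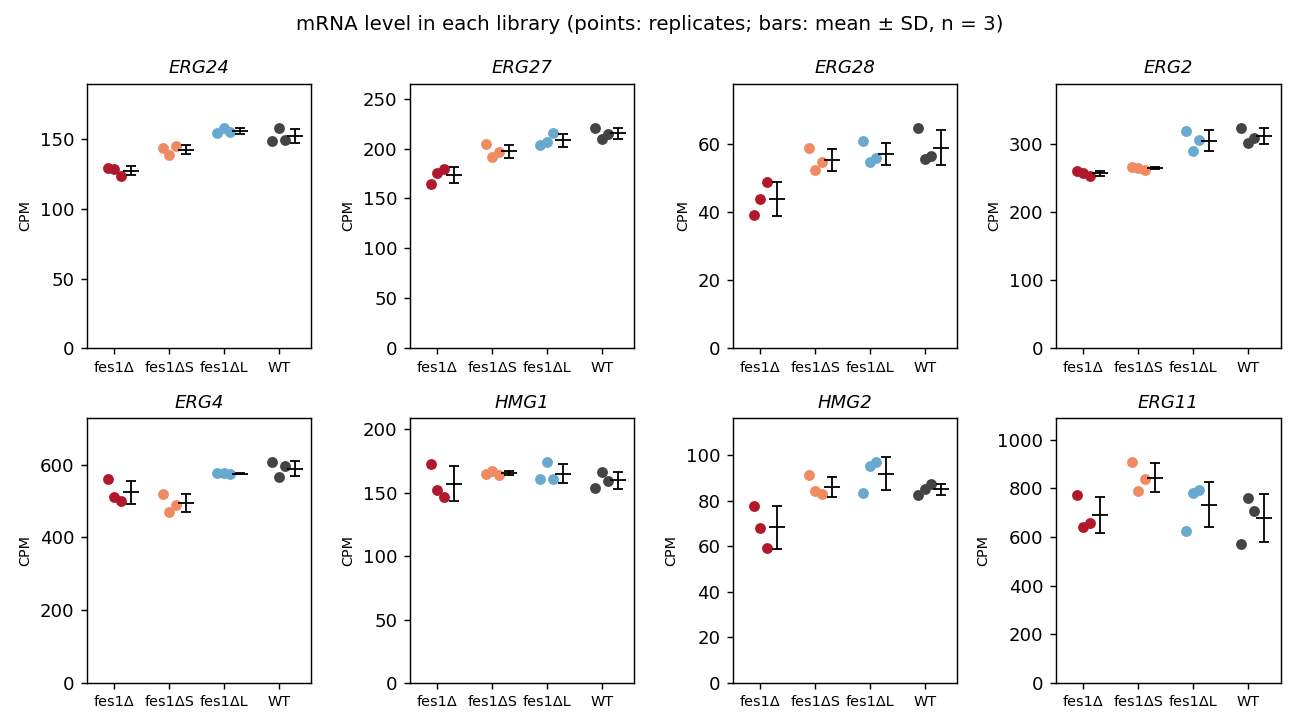
CPM (y axis, from 0) of 8 genes in the 12 libraries by strain (x axis), each point a library and each bar the mean ± SD of 3. ERG24, ERG27, ERG28 and ERG2 are lowest in the libraries labelled fes1Δ, ERG2 and ERG4 are low in fes1ΔS too, and HMG2 is low in the libraries labelled fes1Δ while HMG1 overlaps WT. ERG11 has its highest mean in fes1ΔS, which lies above WT but overlaps fes1ΔL.

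ERG11 encodes the lanosterol demethylase, a cytochrome P450 and the target of azole drugs. It had 774, 643 and 656 CPM in the libraries labelled fes1Δ, with 907, 789 and 838 CPM in fes1ΔS, 625, 781 and 795 CPM in fes1ΔL, and 571, 760 and 707 CPM in WT. All 3 fes1ΔS values lay above every WT value, while the libraries labelled fes1Δ and those of fes1ΔL overlapped WT. The log2 fold change in fes1ΔS was 0.32 (95% interval 0.07 to 0.56), not called by edgeR (adjusted p = 0.137) but called by DESeq2 (adjusted p = 0.0413). Without WT replicate 1, the lowest library for this gene, it was 0.20 (edgeR adjusted p = 0.348).

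The other genes after lanosterol were not called. ERG3, the sterol desaturase gene, had 721, 632 and 608 CPM in the libraries labelled fes1Δ, against 688, 732 and 802 CPM in WT (log2 fold change -0.18, edgeR adjusted p = 0.107), and without fes1Δ replicate 1 it was called (-0.26, edgeR adjusted p = 0.0198). ERG6, the sterol methyltransferase gene, was at -0.11 in the libraries labelled fes1Δ (95% interval -0.22 to 0.00). ERG5, the second cytochrome P450 of the pathway, was at 0.04 (-0.09 to 0.17). In the libraries labelled fes1Δ the values of ERG11 and ERG5 had no stable sign, and without WT replicate 1 they were -0.08 and -0.02.

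The electron donors serve several of these oxygen-using enzymes. NCP1, the P450 reductase gene, had 301, 240 and 217 CPM in the libraries labelled fes1Δ, against 256, 284 and 317 CPM in WT, and these overlap (log2 fold change -0.18, edgeR adjusted p = 0.292). Without fes1Δ replicate 1 it was -0.32 and called (edgeR adjusted p = 0.0134). CYB5, cytochrome b5, was at -0.02 in the libraries labelled fes1Δ and -0.15 in fes1ΔS (edgeR adjusted p = 0.896 and 0.26). DAP1 encodes a heme-binding partner of the lanosterol demethylase. It had 32.5, 30.8 and 31.9 CPM in fes1ΔS and 32.8, 32.3 and 30.8 CPM in fes1ΔL, against 42.3, 31.99 and 38.6 CPM in WT. WT replicate 2 lay within the range of both strains, and neither difference was called (edgeR adjusted p = 0.167 and 0.984).

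The activator genes UPC2 and ECM22 were not called in any strain. UPC2 had 37.0, 29.6 and 27.1 CPM in the libraries labelled fes1Δ, with 41.6, 34.1 and 32.7 CPM in fes1ΔS, 33.5, 38.3 and 35.4 CPM in fes1ΔL, and 25.2, 33.2 and 37.8 CPM in WT. Its replicates spread more than those of any other member except HES1, with a pooled coefficient of variation of 14.9%, and the 95% interval of its log2 fold change in the libraries labelled fes1Δ was -0.34 to 0.29. ECM22 had 76.0, 57.4 and 59.8 CPM in the libraries labelled fes1Δ, with 71.8, 64.9 and 63.9 CPM in fes1ΔS, 59.8, 67.2 and 70.2 CPM in fes1ΔL, and 51.9, 62.0 and 63.1 CPM in WT. All fes1ΔS values of ECM22 lay above WT, by 0.18 on the log2 scale (95% interval -0.03 to 0.40).

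The sterol acyltransferase genes ARE1 and ARE2 make the sterol esters stored in lipid droplets. ARE1 had 108, 99.7 and 88.9 CPM in the libraries labelled fes1Δ, with 115, 96.0 and 116 CPM in fes1ΔS, 113, 108 and 113 CPM in fes1ΔL, and 99.6, 91.9 and 113 CPM in WT. ARE2 had 102, 94.0 and 71.6 CPM in the libraries labelled fes1Δ, with 105, 91.3 and 80.0 CPM in fes1ΔS, 95.9, 91.7 and 87.6 CPM in fes1ΔL, and 99.5, 90.3 and 93.9 CPM in WT. Both genes overlapped WT in every strain, with log2 fold changes between -0.08 and 0.14. ARE1 overlaps another gene in the R64 annotation, so its counts are less certain if reads of both were taken.

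HES1, an oxysterol-binding protein gene, had few counts and the log2 fold changes farthest from 0 among the 32 in the libraries labelled fes1Δ and in fes1ΔS. It had 5.42, 8.80 and 10.6 CPM in the libraries labelled fes1Δ, with 12.3, 7.09 and 7.40 CPM in fes1ΔS, 10.4, 13.1 and 11.8 CPM in fes1ΔL, and 11.9, 11.2 and 16.6 CPM in WT. The libraries labelled fes1Δ lay below WT, and 1 of the fes1ΔS libraries lay within the WT range. The log2 fold changes were -0.68 and -0.54 (edgeR adjusted p = 0.0847 and 0.209), so neither was called by edgeR, while DESeq2 called the first (adjusted p = 0.0472). AUS1, the sterol importer gene used when oxygen is absent, was at 0.04 in the libraries labelled fes1Δ and -0.17 in fes1ΔS, without a call (edgeR adjusted p = 0.806 and 0.274).

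The strains can also be set against each other without WT. The libraries labelled fes1Δ had 5 members lower than in fes1ΔL, HMG2, ERG24, ERG27, ERG28 and ERG2, and none higher, where 5.11% of all genes were called lower and 4.41% higher. Their log2 fold changes were -0.43, -0.29, -0.26, -0.38 and -0.25, and all 5 stayed called under the 11 alternatives. This comparison shares its fes1Δ libraries with the one against WT. Without fes1Δ replicate 1, 9 members were called. Calls over all genes also moved when single libraries were left out, from 354 to 576, against 292 lower and 252 higher with none left out. In fes1ΔS, ERG2 and ERG4 were lower than in fes1ΔL by 0.21 and 0.22 on the log2 scale (edgeR adjusted p = 0.0321 and 0.0342; at most 1 of the pair stayed called when a library was left out), and none was higher, where 2.06% of all genes were called lower and 2.76% higher. No member was higher in the libraries labelled fes1Δ than in fes1ΔL at an unadjusted p under 0.05 (against 599 of 5719 genes) or by DESeq2. In fes1ΔS against fes1ΔL, ERG1 alone was higher at that threshold (0.14, unadjusted p = 0.0325 by edgeR), against 439 of 5719 genes, and DESeq2 called none higher.

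The direct comparison of fes1Δ with fes1ΔS asks which members differ between these strains. HMG2 and ERG28 were lower in the libraries labelled fes1Δ, by 0.33 and 0.34 on the log2 scale (SE 0.08 and 0.09, edgeR adjusted p = 0.0389 and 0.0437), where 1.24% of all genes were called lower. None was higher, where 1.22% of all genes were, and DESeq2 called none higher. AUS1 was higher at an unadjusted p under 0.05 (0.21), as were 350 of 5719 genes. In 11 of the 32 members all libraries labelled fes1Δ lay below all fes1ΔS libraries, against 9.28% of genes. ERG27, ERG24 and ERG26 were among these 11, with differences of -0.19, -0.16 and -0.18 that were not called (edgeR adjusted p = 0.0947, 0.136 and 0.136). The 2 calls were close to the threshold. Leaving out fes1Δ replicate 2 or any fes1ΔS library, or fitting these 2 strains alone, left neither HMG2 nor ERG28 called.

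Part of the spread within strains was shared between members. In the libraries labelled fes1Δ, replicate 1 held the highest value of the 3 for 19 of the 32 members, against 37.7% of all genes, with ERG11, ERG25, ERG3, NCP1, UPC2, ECM22, HMG1 and HMG2 among them. For ERG10, ERG8, ERG26, ERG27, ERG28, ERG6, CYB5, DAP1 and HES1 the same library held the lowest value. In fes1ΔS, replicate 1 was highest for 18 of the 32, against 36.2% of all genes. Without fes1Δ replicate 1, 13 members were called lower than in WT, and without replicate 2 there were 5. Calls over all genes moved too. They ranged from 486 to 1051 when single libraries were left out, against 409 lower and 327 higher with all 12. The part of fes1Δ replicate 1 in the results was not tested beyond leaving it out.

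The summed level of the 23 enzyme genes from ERG10 to ERG4 was 6753 ± 235 CPM in the libraries labelled fes1Δ, 7211 ± 174 CPM in fes1ΔS, 7329 ± 124 CPM in fes1ΔL and 7393 ± 107 CPM in WT (SD, n = 3 each). The libraries labelled fes1Δ lay below the other strains, with 7024 CPM in the highest of them, while 7064 CPM was the lowest value of any other library. In bulk RNA, less RNA of a gene per cell and fewer cells that express it cannot be told apart.

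Levels of different genes were compared only per gene length, in the authors' FPKM values (read fragments scaled by gene length and sequencing depth), for the 11 members with a single FPKM value in each library. In WT, ERG25 was highest at 583 ± 26.8 FPKM, followed by ERG4 at 433 ± 16.2 FPKM and ERG11 at 389 ± 59.7 FPKM (SD, n = 3 each). ERG4 and ERG11 overlapped. ERG1 and ERG9 followed at 275 ± 16.7 and 232 ± 9.72 FPKM without overlap. ERG26, NCP1 and ERG28 were at 133 ± 5.31, 130 ± 16.3 and 128 ± 7.59 FPKM and did not differ beyond their spread. ERG7 was at 80.4 ± 4.996, ARE1 at 50.9 ± 6.10 and the activator gene UPC2 lowest at 10.7 ± 2.29 FPKM. Among these 11 members UPC2 thus lay below all the others. The other activator gene, ECM22, and many of the enzyme genes were not among the 11.

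Genes of neighbouring functions were read from 5 lists of 66 genes in all, of which 65 were tested. Of 12 genes of sterol regulation, 2 rose and 1 fell in the libraries labelled fes1Δ against WT, where 5.72% of all genes were called higher and 7.15% lower. ROX1, the repressor of hypoxic genes, had 117, 109 and 115 CPM in the libraries labelled fes1Δ, against 95.3, 76.3 and 96.2 CPM in WT (log2 fold change 0.35, SE 0.08, edgeR adjusted p = 0.0083). MOT3, another repressor of hypoxic and sterol genes, had 69.5, 60.1 and 64.2 CPM there, against 49.2, 55.3 and 50.8 CPM in WT (0.32, SE 0.07, edgeR adjusted p = 0.00514). Neither gene overlapped WT, and SUT2, a zinc cluster gene linked to sterol uptake, fell by 0.33 on the log2 scale (edgeR adjusted p = 0.0139), a call that ended without WT replicate 2 or fes1Δ replicate 1 (edgeR adjusted p = 0.0551 and 0.0646). ROX1 was also higher in the libraries labelled fes1Δ than in fes1ΔS, by 0.45 on the log2 scale (edgeR adjusted p = 0.00455). In fes1ΔS itself ROX1 was at -0.11 against WT, without a call. Against fes1ΔL the libraries labelled fes1Δ were at 0.21, which was not called.

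Of 23 genes of sterol transport, ester hydrolysis and sterol acetylation, 3 fell in the libraries labelled fes1Δ and none rose by edgeR or DESeq2. LAM6 was higher at an unadjusted p under 0.05 (0.19), as were 692 of 5719 genes. The 3 that fell are 13.0% of the list, where 7.15% of all genes were called lower, and 10 of the 23 had a negative log2 fold change. PDR16, a phosphatidylinositol transfer protein that affects azole tolerance, had 178, 211 and 203 CPM there, against 287, 249 and 298 CPM in WT (log2 fold change -0.49, SE 0.07, edgeR adjusted p = 1.14e-04). ATF2, the sterol acetyltransferase gene, fell by 0.25 and OSH6, a lipid transfer protein gene, by 0.21 (edgeR adjusted p = 0.0157 and 0.0393). DESeq2 did not call OSH6 (adjusted p = 0.0767), and leaving out WT replicate 1 or 3 or fes1Δ replicate 1 or 3 ended its call. That of ATF2 ended without WT replicate 3 or fes1Δ replicate 1 (edgeR adjusted p = 0.0642 and 0.0522).

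Of 12 genes of the isoprenoid branches 11 were tested, and NUS1, of dolichol synthesis, was the only called gene of this list, 9.09% of those tested, near the 7.15% of all genes called lower. In the libraries labelled fes1Δ it fell by 0.27 on the log2 scale (edgeR adjusted p = 0.0081), a call that ended without WT replicate 3 (edgeR adjusted p = 0.0593). Of 8 heme synthesis genes, HEM12 alone (12.5%, against the same 7.15%) was called, and it fell by 0.20 on the log2 scale (edgeR adjusted p = 0.035), a call that ended without either WT replicate 1 or 3, without fes1Δ replicate 1 or 2, or in a fit of these 2 strains alone (edgeR adjusted p from 0.0902 to 0.137).

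Of 11 hypoxic cell wall and lipid genes, TIR2 and SCS7 (18.2% of the list) fell in the libraries labelled fes1Δ, where 7.15% of all genes were called lower. None of the isoprenoid, heme or hypoxic genes was higher there by edgeR, by DESeq2 or at an unadjusted p under 0.05. TIR2, a cell wall mannoprotein gene, averaged 7.68 ± 1.17 CPM there and 13.3 ± 1.10 CPM in WT (SD, n = 3 each), without overlap (log2 fold change -0.80, SE 0.15, edgeR adjusted p = 0.0014). SCS7, a sphingolipid hydroxylase gene, had 143, 137 and 143 CPM in the libraries labelled fes1Δ, with 176, 141 and 148 CPM in fes1ΔS, and 195, 169 and 212 CPM in WT. It was called in both strains, at -0.44 and -0.30 (edgeR adjusted p = 0.00109 and 0.0281), and in fes1ΔS its libraries overlapped WT and leaving out WT replicate 1 or 3 or fes1ΔS replicate 2 or 3 ended the call (edgeR adjusted p from 0.101 to 0.165). In fes1ΔS, where 3.44% of all genes were called lower, IZH4 was the other called gene of the 65 tested, at 12.9, 13.7 and 14.8 CPM, against 19.9, 21.4 and 17.1 CPM in WT (-0.50, SE 0.11, edgeR adjusted p = 0.00788), a call that ended without fes1ΔS replicate 1 (edgeR adjusted p = 0.0533). In fes1ΔL none of the 65 genes was called by edgeR or DESeq2, and SUT1 alone had an unadjusted p under 0.05 (0.28). At that threshold 94 of 5719 genes were higher and 138 lower.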

How the data were processed

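Polyadenylated RNA of 12 libraries, 3 for each of 4 strains, had been sequenced. Per the submitters' processing notes, the tools named include CASAVA and bcl2fastq 1.8.3, HTSeq 0.6.1, Cufflinks 2.1.1, TopHat2 2.0.4 and Picard 1.29, and the build is sacCer2. Their settings were not stated. The authors' deposited counts are raw whole-number reads per gene. The authors' deposited FPKM values are normalized for gene length and depth. They were used for levels between genes only where a row held 12 values (3629 genes), and 3501 rows with 24 values were left out. A further 12 columns of the heat-shock tables match no sample label and were not used.

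All genes were fitted at once in R 4.3.3 with edgeR 4.0.16 (TMM scaling, filterByExpr, robust quasi-likelihood test, strain as the only term), leaving 5719 genes and 6 comparisons, each adjusted over all genes. Intervals are 95% and come from the same fit. DESeq2 1.42.0, median-ratio scaling, no filter, a replicate block, a fit of the compared strains alone and leaving out each library were the alternatives. The code was tested on simulated data. The members, and the lists of neighbouring genes, were chosen with earlier results of these data known. All members are named, with values in every library for those called against WT and for the paralog pairs; of the neighbouring genes, those called against WT are named, and those that make up a count of 1. Replicates of a strain differed by more than counting noise, so none was merged. A planned promoter search was not run, because the genome at hand is of another build than the files.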

Additional observations from a re-analysis of the deposited data

How the results depend on the processing

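No called gene changed direction under any alternative. Of the 32 members, 12 that were not called in fes1Δ against WT changed sign when some library was left out, among them ERG11, ERG5, ERG1, HMG1, UPC2 and ECM22, as did 5 in fes1ΔS and 11 in fes1ΔL against WT. The 32 genes gave 9 calls in the libraries labelled fes1Δ against WT, and between 5 and 13 when a library was left out: 5 without fes1Δ replicate 2, and 13 without fes1Δ replicate 1, where ERG12, ERG25, ERG3, ERG4 and NCP1 were added and ERG20 was lost. DESeq2 gave 11 and the replicate block 10. Of the 9, ERG24, ERG26, ERG27, ERG28 and ERG2 were called under all 11 alternatives. Leaving out a library gave 1 to 3 members in fes1ΔS against WT, 5 to 9 in fes1Δ against fes1ΔL, 0 to 1 in fes1ΔS against fes1ΔL and 0 to 1 in fes1Δ against fes1ΔS. In the last, the replicate block left 1 member and the fit of these strains alone left 0. Over all genes, leaving out a library gave 486 to 1051 calls in fes1Δ against WT, 251 to 410 in fes1ΔS against WT, 354 to 576 in fes1Δ against fes1ΔL and 59 to 128 in fes1Δ against fes1ΔS. Fitting the compared strains alone gave 466 calls in fes1Δ against WT, 10 in fes1ΔL against WT and 464 in fes1ΔS against fes1ΔL. With all 12 libraries, 409 genes were called lower and 327 higher in fes1Δ against WT, and 197 and 184 in fes1ΔS against WT. In fes1ΔL against WT these counts were 2 and 2. Against fes1ΔL they were 292 and 252 for fes1Δ and 118 and 158 for fes1ΔS. For fes1Δ against fes1ΔS they were 71 and 70. The cause of the shifts from these counts was not tested. The replicate numbers did not clearly pair the libraries: same-numbered libraries correlated between -0.19 and 0.29, and those of other numbers between -0.26 and 0.24. Of the 18 same-numbered pairs, 4 were over 0.1, and 6 of 12 libraries correlated best with their own number. A batch shared by replicate number was not tested beyond the replicate block. The median log2 fold change of the 32 in fes1Δ against WT stayed between -0.17 and -0.12. With 3 libraries a strain, a change whose 95% interval includes 0 cannot be told from none.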
